A study of Homo sapiens with 6 samples.

Results

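The transcripts described here belong to the hypoxia response: the oxygen-sensing factors HIF1A and EPAS1 and 8 genes known as targets of these factors in human cells. They were chosen by name, as the entries of the count table whose gene symbol was HIF1A, EPAS1, VEGFA, ADM, CA9, NDRG1, BNIP3, EGLN1, EGLN3 or ANKRD37. The list was drawn up with earlier results of these data known. All 10 were found among the 34036 genes of the table, and all 10 had enough counts to be tested. The measurements come from HepG2, an established line grown from a human hepatocellular carcinoma, whose RNA was sequenced 48 h after transfection with small interfering RNA. The siDGUOK cultures received a siGENOME pool against DGUOK, the mitochondrial enzyme that phosphorylates deoxyguanosine, and the siControl cultures received a non-targeting pool. Both pools were delivered with Lipofectamine RNAiMAX at 6 pmol per well of a 24-well plate, with 3 cultures in each group that the series describes as independent biological replicates. The treatment field of the labels names siControl for all 6 libraries, so titles and library names were used to tell the groups apart. No library was made from cells kept at low oxygen, and an untransfected culture was not sequenced.

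HIF factors pair an oxygen-regulated alpha subunit, such as the products of HIF1A and EPAS1, with the stable partner ARNT. When oxygen is available, prolyl hydroxylases encoded by the EGLN genes modify the alpha subunit, the VHL ubiquitin ligase binds it and it is degraded, so that much of the control acts on the protein and not on the transcript. When it persists, the dimer binds short response elements in DNA, and in liver cells its targets cover glycolysis, iron handling, blood vessel growth and acid balance.

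The group labels were checked against the gene that was knocked down. DGUOK was at 54.4, 53.1 and 48.2 CPM (counts per 1000000 counts of the library, on TMM-scaled library sizes) in siControl replicates 1, 2 and 3 and at 9.08, 10.5 and 6.72 CPM in siDGUOK replicates 1, 2 and 3. The siDGUOK libraries lay far below every siControl library, as their titles say. The log2 fold change of DGUOK, siDGUOK against siControl, was −2.57 with a standard error (SE) of 0.19, and edgeR's quasi-likelihood test gave an adjusted p of 1.64e-08. Library totals were 19065684, 18915508 and 10527216 counts in siControl replicates 1, 2 and 3. In siDGUOK replicates 1, 2 and 3 they were 18613138, 15978314 and 21334876 counts. The lowest count of any of the 10 genes in any library was 127, for ANKRD37 in siControl replicate 3, the smallest library.

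HIF1A, ADM, CA9 and ANKRD37 were higher in siDGUOK than in siControl cultures, by 1.42, 1.57, 1.49 and 1.69 times. None of the 10 genes was called lower. To be called, a gene needed an adjusted p under 0.05 by edgeR's quasi-likelihood test (Benjamini-Hochberg over all 14476 genes tested) and a log2 fold change beyond 0.5 in either direction. By this rule 4 of the 10 genes were called higher, where 7.42% of all genes tested were, and 0 were called lower, where 6.68% of all genes tested were. DESeq2 called 3 of the 10 higher (ADM, CA9 and ANKRD37) and 0 lower, and edgeR gave 0 lower at an unadjusted p under 0.05. With the adjusted p alone, and no minimum fold change, 7 of the 10 were higher against 10.3% of all genes and 0 were lower against 9.35%. In 6 of the 10 every siDGUOK library lay above every siControl library, which held for 18.7% of all genes, and in 0 did every siDGUOK library lie below, which held for 17.3%. The median log2 fold change was 0.33 over the 10 genes and 0.02 over all genes tested. Since the 10 were chosen with earlier results of these data known, these comparisons with all genes are descriptions and not independent support. Which genes were called depended on single libraries: 2 were called without siControl replicate 1 (HIF1A and ADM), 3 without siControl replicate 2 (ADM, CA9 and ANKRD37) and 3 without siControl replicate 3 (HIF1A, ADM and CA9). Without siDGUOK replicate 1 there were 2 (ADM and ANKRD37), without siDGUOK replicate 2 there were 4, and without siDGUOK replicate 3 there were 3 (HIF1A, ADM and CA9). A further fit, chosen after seeing the data, left out siDGUOK replicates 1 and 2 together and so kept a lone siDGUOK library. In that fit the median log2 fold change of the 10 was again 0.33. HIF1A was at 0.37, ADM at 0.46 and CA9 at 0.495, each under the threshold of 0.5, and ANKRD37 was at 0.93.

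**Figure D1:**
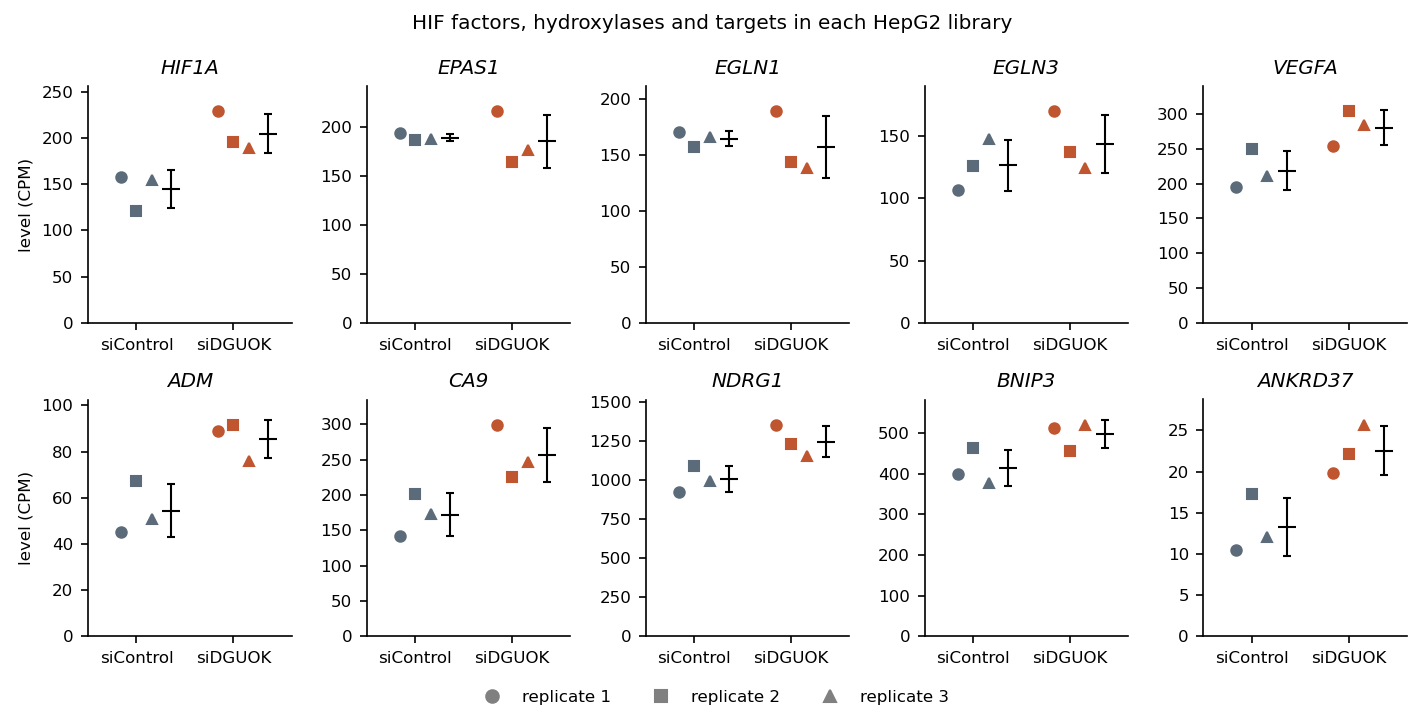
Level of each of the 10 genes in CPM in each library, with siControl in grey and siDGUOK in orange; circles, squares and triangles are replicates 1, 2 and 3, and the black bar and whiskers give the mean and SD of the 3 libraries. In HIF1A, VEGFA, ADM, CA9, NDRG1 and ANKRD37 the 3 siDGUOK libraries lie above the 3 siControl libraries; in EPAS1, EGLN1, EGLN3 and BNIP3 the groups overlap.

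The oxygen-regulated factors come first. HIF1A (ENSG00000100644, chromosome 14, 61695513 to 61748259 on the plus strand of GRCh38 in Gencode 44) encodes the alpha subunit that most cells carry. Its level was 158, 121 and 155 CPM in siControl replicates 1, 2 and 3, and 229, 196 and 189 CPM in siDGUOK replicates 1, 2 and 3. The groups did not overlap, siControl replicate 2 was the lowest library and siDGUOK replicate 1 the highest. The mean was 145 ± 20.4 CPM (SD, n = 3) in siControl and 205 ± 21.2 CPM in siDGUOK. The log2 fold change was 0.502 (SE 0.11, 95% confidence interval 0.28 to 0.73), just above the 0.5 that a call requires, with an adjusted p of 0.00222 by edgeR's quasi-likelihood test. It was 0.39 without siControl replicate 2 and 0.40 without siDGUOK replicate 1, both under the required size. DESeq2 gave 0.49, also under it, and over all 17 alternatives the log2 fold change ran from 0.37 to 0.57. The size of the change was thus on either side of the threshold, and all 17 values were positive.

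EPAS1 (ENSG00000116016, chromosome 2, 46293667 to 46386697, plus strand) encodes HIF-2 alpha, the paralogue known for its part in iron and erythropoietin control. Its level was 193, 186 and 187 CPM in siControl replicates 1, 2 and 3, and 215, 163 and 176 CPM in siDGUOK replicates 1, 2 and 3. The siControl libraries lay within the spread of the siDGUOK libraries, of which replicate 1 was the highest and replicates 2 and 3 were under all 3 controls. EPAS1 was not called: its log2 fold change was −0.03 (SE 0.10, 95% confidence interval −0.23 to 0.18), with an adjusted p of 0.892 by edgeR's quasi-likelihood test. It was 0.05 without siDGUOK replicate 2, so its sign depended on that library.

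Per kilobase of exon, the levels of both factors can be set side by side. The ratio of HIF1A to EPAS1 in RPKM (CPM divided by exon length in kilobases) was 1.16, 0.921 and 1.17 in siControl replicates 1, 2 and 3, and 1.50, 1.70 and 1.52 in siDGUOK replicates 1, 2 and 3. The ratio was higher in each siDGUOK library than in any siControl library. Its mean was 1.08 ± 0.141 (SD, n = 3) in siControl and 1.57 ± 0.106 in siDGUOK; this ratio was not given a test of its own.

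The prolyl hydroxylases follow. EGLN1 (ENSG00000135766, chromosome 1, 231363751 to 231422287, minus strand) encodes PHD2, the main oxygen sensor of this family and itself a HIF target. It was at 170, 158 and 166 CPM in siControl replicates 1, 2 and 3, and at 189, 144 and 139 CPM in siDGUOK replicates 1, 2 and 3. The groups overlapped, with siDGUOK replicate 1 above and siDGUOK replicates 2 and 3 below all 3 siControl libraries. The log2 fold change was −0.07 (SE 0.11, 95% confidence interval −0.29 to 0.16), with an adjusted p of 0.753 by edgeR's quasi-likelihood test, and it was 0.01 without siDGUOK replicate 3. EGLN3 (ENSG00000129521, chromosome 14, 33924227 to 34462774, minus strand) encodes PHD3, whose transcript is known for a strong response to low oxygen. It was at 106, 126 and 147 CPM in siControl replicates 1, 2 and 3, and at 169, 137 and 124 CPM in siDGUOK replicates 1, 2 and 3. Here too the groups overlapped, siControl replicate 1 was lowest and siDGUOK replicate 1 highest. For EGLN3 the log2 fold change was 0.19 (SE 0.12, 95% confidence interval −0.08 to 0.45), with an adjusted p of 0.354 by edgeR's quasi-likelihood test. It was 0.03 without siDGUOK replicate 1, 0.08 without siControl replicate 1 and 0.31 without siControl replicate 3. Neither hydroxylase was called in any of the fits that left out 1 library.

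Among the targets with secreted products, ADM and VEGFA differed in whether they passed the fold threshold. ADM (ENSG00000148926, chromosome 11, 10305073 to 10307397, plus strand) encodes adrenomedullin, a peptide that widens blood vessels. Its level was 45.1, 67.3 and 50.8 CPM in siControl replicates 1, 2 and 3, and 88.8, 91.5 and 76.0 CPM in siDGUOK replicates 1, 2 and 3. The groups did not overlap, and siControl replicate 2 came nearest to the siDGUOK libraries. The mean rose from 54.4 ± 11.6 CPM (SD, n = 3) to 85.4 ± 8.32 CPM. This is a log2 fold change of 0.65 (SE 0.14, 95% confidence interval 0.35 to 0.95), with an adjusted p of 0.00278 by edgeR's quasi-likelihood test. ADM was called in all 6 fits that left out 1 library, with log2 fold changes between 0.53 and 0.84. With siDGUOK replicates 1 and 2 left out together it was 0.46, with an adjusted p of 0.176 by edgeR's quasi-likelihood test, where the 17 alternatives, fitted with edgeR or DESeq2, ran from 5.04e-06 to 0.176.

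VEGFA (ENSG00000112715, chromosome 6, 43770184 to 43786487, plus strand) encodes the growth factor that drives the sprouting of blood vessels. It was at 194, 250 and 211 CPM in siControl replicates 1, 2 and 3, and at 254, 304 and 283 CPM in siDGUOK replicates 1, 2 and 3. The siDGUOK libraries lay above the siControl libraries, though siControl replicate 2 and siDGUOK replicate 1 were close to each other. VEGFA had a log2 fold change of 0.36 (SE 0.10, 95% confidence interval 0.15 to 0.56) and an adjusted p of 0.0129 by edgeR's quasi-likelihood test, and it was not called because of the fold threshold. Its adjusted p by that test was under 0.05 in 3 of the 6 fits that left out 1 library. The others were those without siControl replicate 1 (0.0864), siControl replicate 3 (0.0896) and siDGUOK replicate 2 (0.0629), in a range of 0.00178 to 0.100 over the 17 alternatives.

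CA9 (ENSG00000107159, chromosome 9, 35673928 to 35681159, plus strand) encodes carbonic anhydrase IX, an enzyme of the cell surface that acts in acid balance and is widely used as a tissue marker of hypoxia. Its level was 142, 202 and 173 CPM in siControl replicates 1, 2 and 3, and 299, 226 and 246 CPM in siDGUOK replicates 1, 2 and 3. No siControl library reached the lowest siDGUOK library, and siDGUOK replicate 1 was the highest of the 6. CA9 rose from a mean of 172 ± 30.0 CPM (SD, n = 3) to 257 ± 37.9 CPM, a log2 fold change of 0.58 (SE 0.12, 95% confidence interval 0.33 to 0.83). The adjusted p by edgeR's quasi-likelihood test was 0.00170. Without siControl replicate 1 the log2 fold change was 0.46, and without siDGUOK replicate 1 it was 0.44, both under the threshold of a call. Of the exon bases of CA9, 35.7% also lie in exons of ARHGEF39 on the opposite strand, and the counting ignored strand and dropped reads that overlap more than 1 gene. ARHGEF39 itself held between 54 and 109 counts per library, where CA9 held between 1817 and 5536.

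ANKRD37 (ENSG00000186352, chromosome 4, 185396021 to 185400628, plus strand) encodes a small ankyrin repeat protein. It was at 10.5, 17.3 and 12.1 CPM in siControl replicates 1, 2 and 3, and at 19.8, 22.2 and 25.7 CPM in siDGUOK replicates 1, 2 and 3. All 3 siDGUOK libraries were above all 3 siControl libraries, with siControl replicate 2 the closest to them. The mean rose from 13.3 ± 3.52 CPM (SD, n = 3) to 22.6 ± 2.94 CPM. Its log2 fold change of 0.76 was the largest of the 10 and the least precise (SE 0.23, 95% confidence interval 0.28 to 1.24), with an adjusted p of 0.0235 by edgeR's quasi-likelihood test. By the same test the adjusted p was 0.107 without siControl replicate 1, 0.0949 without siControl replicate 3 and 0.0952 without siDGUOK replicate 3, in a range of 0.00670 to 0.107 over the 17 alternatives. The log2 fold change was then 0.61, 0.70 and 0.65. UFSP2, on the opposite strand, shares 40.3% of the exon bases of ANKRD37 and held between 178 and 276 counts per library.

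NDRG1 and BNIP3 act in stress and survival under low oxygen. NDRG1 (ENSG00000104419, chromosome 8, 133237175 to 133302022, minus strand) encodes a cytoplasmic stress-response protein. Its level was 927, 1092 and 995 CPM in siControl replicates 1, 2 and 3, and 1353, 1232 and 1153 CPM in siDGUOK replicates 1, 2 and 3. The groups did not overlap. NDRG1 was not called: its log2 fold change was 0.31 (SE 0.08, 95% confidence interval 0.15 to 0.48), under the threshold, with an adjusted p of 0.00810 by edgeR's quasi-likelihood test. By this test the adjusted p was 0.0567 without siControl replicate 3 and 0.0737 without siDGUOK replicate 1, where the 17 alternatives ran from 0.000543 to 0.309. BNIP3 (ENSG00000176171, chromosome 10, 131967684 to 131981967, minus strand) encodes a mitochondrial outer membrane protein that acts in mitophagy and cell death. It was at 398, 462 and 378 CPM in siControl replicates 1, 2 and 3, and at 513, 457 and 520 CPM in siDGUOK replicates 1, 2 and 3. The groups overlapped, since siControl replicate 2 was above siDGUOK replicate 2. The log2 fold change of BNIP3 was 0.27 (SE 0.09, 95% confidence interval 0.09 to 0.45), with an adjusted p of 0.0345 by edgeR's quasi-likelihood test, and it was not called. That adjusted p was under 0.05 in 2 of the 6 fits of the same edgeR test that left out 1 library, those without siControl replicate 2 (0.00861) and without siDGUOK replicate 2 (0.0211). In the other 4 it was 0.117 without siControl replicate 1, 0.216 without siControl replicate 3, 0.149 without siDGUOK replicate 1 and 0.147 without siDGUOK replicate 3, and 0.216 was the highest of the 17 alternatives.

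**Figure D2:**
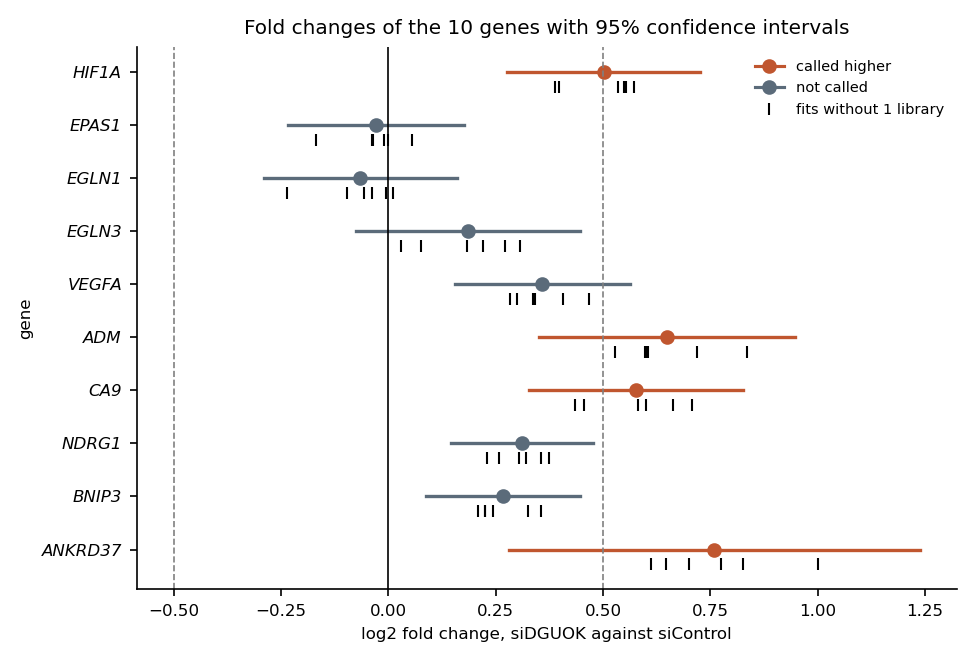
Log2 fold change of each gene, siDGUOK against siControl (dots), with its 95% confidence interval (lines); orange marks genes called higher and grey those not called, the dashed lines are at −0.5 and 0.5, and black ticks are the values without each of the 6 libraries in turn. HIF1A at 0.502 sits on the threshold, the ticks of ADM all lie above it, and those of EPAS1 and EGLN1 fall on both sides of 0.

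Ordered by level per kilobase of exon, CA9 had the highest mean of the 10 genes in both groups and ANKRD37 the lowest. These levels divide by the full exon length, although reads in the exon bases that CA9 and ANKRD37 share with other genes were dropped. The levels of both per countable base are thus understated, and overlaps between neighbours are given for the full length. The order also depends on the length used, which sums every annotated exon base: 12002 for NDRG1, 14431 for VEGFA and 1598 for CA9. In CPM the siControl mean of NDRG1 (1005) was above that of CA9 (172). In siControl, CA9 was at 108 ± 18.8 RPKM (SD, n = 3), BNIP3 at 102 ± 10.9 RPKM and NDRG1 at 83.7 ± 6.92 RPKM. On this scale the libraries of CA9 and BNIP3 overlapped, whereas those of BNIP3 and NDRG1 did not. EGLN1 (30.6 RPKM), HIF1A (28.1), EPAS1 (25.9), ADM (23.4), EGLN3 (17.2) and VEGFA (15.1) followed, and each of these overlapped the next in siControl. ANKRD37, at 5.90 ± 1.56 RPKM, was below them with no overlap. In siDGUOK, CA9 was at 161 ± 23.7 RPKM, BNIP3 at 123 ± 8.57 RPKM and NDRG1 at 104 ± 8.38 RPKM, with no overlap between them. HIF1A (39.7 RPKM) and ADM (36.7) stood ahead of EGLN1 (29.3) and EPAS1 (25.4) in siDGUOK, although each neighbour in this order overlapped the next. EGLN3 (19.5 RPKM) and VEGFA (19.4) also overlapped there, and ANKRD37 at 10.0 ± 1.31 RPKM was again the lowest.

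The 10 genes did not vary alike among replicates. In siControl, replicate 2 was the highest of its group for 6 of the 10 genes, where it was the highest for 34.9% of the 9221 genes whose mean reached 10 CPM. In siDGUOK, replicate 1 was the highest of its group for 6 of the 10, against 33.1% of those genes. Relative to the siControl mean, the median log2 level of the 10 genes was −0.14, 0.14 and −0.01 in siControl replicates 1, 2 and 3, and 0.43, 0.34 and 0.35 in siDGUOK replicates 1, 2 and 3. The medians of the siDGUOK libraries were thus all above those of the siControl libraries. The hypoxia lists described further on, without the list that controls the HIF proteins, held 58 tested genes whose mean reached 10 CPM. Of these, siControl replicate 2 was the highest of its group for 32 and siDGUOK replicate 1 the highest of its group for 44.

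For each called gene, the transcripts with the most similar pattern over the 6 libraries were looked up among the same 9221 genes. Likeness was the root mean square difference of centred log2 CPM, where a smaller value means a closer match. SPOPL (0.0298) and C12orf29 (0.0568) were closest to HIF1A, for which the median gene was at 0.356. DDA1 (0.0708) and SLC30A7 (0.0780) were closest to ADM, against a median of 0.433. PTPRN2 (0.0815) and ZNF581 (0.0839) were closest to CA9, against a median of 0.401. The closest to ANKRD37 were C7orf43 (0.0798) and RTL8C (0.0907), against a median of 0.499. None of these 8 is on the hypoxia lists, and the match is over 6 libraries in 2 groups.

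The promoters of the called genes are shown because each of these genes was called higher and HIF dimers are known to bind a short core sequence. RefSeq promoters on GRCh38.p14 were matched by symbol for 8 of the 10 genes; VEGFA and NDRG1 were not matched. The 250 bases before each RefSeq start were searched on both strands for the response element cores ACGTG and GCGTG. The core ACGTG also lies within the E-box CACGTG. Of 35116 promoters of this length, 18.5% held ACGTG, 32.2% held GCGTG, 43.2% held either core and 6.34% held the E-box. Of the 8 genes, 7 held either core: CA9, BNIP3, EGLN1 and ANKRD37 held ACGTG, and HIF1A, EPAS1, ADM and BNIP3 held GCGTG. EGLN3 held neither in this window. HIF1A has 2 windows in the table, of which only the printed one holds a core. The sequences below run 5′ to 3′ on the plus strand, the strand of all 4 genes, with the cores in capitals: ADM at chr11:10304823-10305072, CA9 at chr9:35673678-35673927, ANKRD37 at chr4:185396591-185396840 and HIF1A at chr14:61695263-61695512.
ADM: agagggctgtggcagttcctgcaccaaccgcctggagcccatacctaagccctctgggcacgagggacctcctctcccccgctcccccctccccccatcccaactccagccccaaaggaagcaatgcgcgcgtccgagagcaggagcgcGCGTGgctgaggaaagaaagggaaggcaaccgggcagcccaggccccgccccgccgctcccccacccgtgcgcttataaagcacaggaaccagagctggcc
CA9: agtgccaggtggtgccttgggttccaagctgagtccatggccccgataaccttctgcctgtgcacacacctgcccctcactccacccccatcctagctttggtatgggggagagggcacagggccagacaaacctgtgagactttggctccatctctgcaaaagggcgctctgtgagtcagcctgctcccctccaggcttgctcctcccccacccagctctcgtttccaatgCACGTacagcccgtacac
ANKRD37: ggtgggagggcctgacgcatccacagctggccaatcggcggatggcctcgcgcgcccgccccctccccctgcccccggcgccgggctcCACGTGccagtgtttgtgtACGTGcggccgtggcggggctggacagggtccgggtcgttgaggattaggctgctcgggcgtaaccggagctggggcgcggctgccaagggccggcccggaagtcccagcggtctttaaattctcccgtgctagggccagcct
HIF1A: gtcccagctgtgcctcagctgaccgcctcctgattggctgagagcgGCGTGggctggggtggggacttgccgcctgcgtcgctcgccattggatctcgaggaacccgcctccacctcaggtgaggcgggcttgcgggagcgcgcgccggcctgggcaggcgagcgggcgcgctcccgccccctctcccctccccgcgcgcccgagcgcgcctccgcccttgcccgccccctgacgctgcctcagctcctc
The core GCGTG begins 101 bases before the start in ADM and 204 before it in HIF1A. In CA9 the other core lies on the minus strand and reads CACGT as printed, beginning 18 bases before the start. In ANKRD37 that core occurs on both strands of the E-box CACGTG, which begins 162 bases before the RefSeq start, and again 143 bases before it. The RefSeq start of ANKRD37 lies inside the gene as Gencode places it, whereas the printed windows of ADM, CA9 and HIF1A end just before the gene starts given above. A match is a description of these letters; binding was not measured.

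The other genes of the pathway were followed in 5 lists grouped by function, 78 genes in all, of which 76 could be tested. Together 13 of the 76 were called higher and 7 lower by edgeR's quasi-likelihood test, where 7.42% of all genes tested were called higher and 6.68% lower. Their median log2 fold change was 0.03, beside 0.02 over all genes tested. Beside them stand the 10 genes above, with 4 called higher, 0 lower and a median of 0.33; the difference from the wider lists was not tested. Of the list that controls the HIF proteins, which holds their partners, hydroxylases, ubiquitin ligase subunits and coactivators, 13 of 14 genes were tested and P4HTM was not. There 1 was called higher (7.42% of all genes), 0 were called lower by edgeR (6.68% of all genes) or by DESeq2, and the median was 0.01. With the adjusted p of edgeR alone, 1 was higher, against 10.3% of all genes, and 0 lower, against 9.35%. At an unadjusted p under 0.05 by edgeR's quasi-likelihood test, 2 were higher and 2 lower, counts for which no share of all genes is given. ELOC, a subunit of the VHL ligase, was at 41.6, 40.2 and 44.3 CPM in siControl replicates 1, 2 and 3, and at 51.3, 65.7 and 64.3 CPM in siDGUOK replicates 1, 2 and 3. The groups did not overlap, and the log2 fold change of ELOC was 0.53 (SE 0.14; adjusted p 0.00925 by edgeR's quasi-likelihood test). It was 0.49 without siControl replicate 2, 0.46 without siDGUOK replicate 2 and 0.47 without siDGUOK replicate 3, each under the threshold, and so was the 0.48 that DESeq2 gave with shrunken fold changes. The abundant members ELOB, the partner of ELOC, and CITED2, which competes with HIF for its coactivators, were not called, with log2 fold changes of 0.17 (SE 0.12) and −0.37 (SE 0.13).

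Of the 21 glycolytic targets, 7 were called higher (7.42% of all genes) and 0 lower (6.68% of all genes) by edgeR, with a median log2 fold change of 0.29. DESeq2 also called 7 higher and 0 lower. At an unadjusted p under 0.05 by edgeR's quasi-likelihood test, 12 were higher and 4 lower. No share of all genes is given at that threshold, so these counts stand without a background. SLC2A1, the glucose transporter GLUT1, was at 738, 826 and 865 CPM in siControl replicates 1, 2 and 3, and at 2951, 2971 and 3288 CPM in siDGUOK replicates 1, 2 and 3. Every siDGUOK library was far above every siControl library, and the log2 fold change of SLC2A1 was 1.92 (SE 0.08; adjusted p 6.61e-12 by edgeR's quasi-likelihood test). The hexokinase HK1 (1.52, SE 0.28), the phosphofructokinase PFKP (1.41, SE 0.20), the enolase ENO2 (0.89, SE 0.09) and the dehydrogenase GAPDH (0.54, SE 0.06) were called in every fit that left out 1 library. With siDGUOK replicates 1 and 2 left out together the call of HK1 was lost, at a log2 fold change of 1.17. PDK1, the kinase that restrains pyruvate dehydrogenase, had a log2 fold change of 0.62 (SE 0.12), which was 0.49 without siControl replicate 3. The pyruvate kinase PKM had 0.54 (SE 0.07), which was 0.48 without siDGUOK replicate 1. With the adjusted p of edgeR alone, 10 of the 21 were higher, against 10.3% of all genes, and 2 lower, against 9.35%. The lower ones were PFKL at −0.28 and ENO1 at −0.20, named after their values were seen.

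Of the 14 secreted, vascular and iron targets 13 were tested, all but FLT1; 1 was called higher (7.42% of all genes) and 4 lower (6.68% of all genes), with a median log2 fold change of −0.27. HMOX1, which degrades heme, was at 55.6, 66.0 and 76.2 CPM in siControl replicates 1, 2 and 3, and at 41.0, 23.6 and 28.0 CPM in siDGUOK replicates 1, 2 and 3. The groups did not overlap, and its log2 fold change was −1.09 (SE 0.18; adjusted p 0.000236 by edgeR's quasi-likelihood test). The iron carrier TF (−0.95, SE 0.08), the ferroxidase CP (−0.80, SE 0.10) and the transferrin receptor TFRC (−0.75, SE 0.09) were also called lower, in this and in all 6 fits that left out 1 library. STC1, which encodes the hormone stanniocalcin, was called higher at low levels, with 0.267, 0.639 and 0 CPM in siControl and 1.78, 2.59 and 4.97 CPM in siDGUOK replicates 1, 2 and 3. It held 5, 12 and 0 counts in siControl and 33, 42 and 108 counts in siDGUOK replicates 1, 2 and 3. STC1 thus passed the filter on low counts through its siDGUOK libraries. Fitted over all libraries, the log2 fold change of STC1 was 3.26 (SE 1.06, adjusted p 0.0360 by edgeR's quasi-likelihood test). It was 4.29 without siControl replicate 2, 2.76 without siDGUOK replicate 3 and 0.80 with the shrunken fold changes of DESeq2. The adjusted p of STC1 was 0.0927 without siControl replicate 1, 0.0889 without siControl replicate 3, 0.0651 without siDGUOK replicate 1, 0.0544 without siDGUOK replicate 2 and 0.221 without siDGUOK replicate 3, and it was 0.0677 with a replicate block and 0.0618 with siDGUOK replicates 1 and 2 left out together, in a range of 0.00262 to 0.221 over the 16 alternatives that tested it with edgeR or DESeq2.

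Of the 10 targets that are hydroxylases, demethylases or matrix enzymes, 1 was called higher (7.42% of all genes) and 2 lower (6.68% of all genes), with a median of −0.20. LOXL2, a lysyl oxidase of the matrix, was at 13.7, 15.6 and 19.1 CPM in siControl replicates 1, 2 and 3, and at 97.3, 78.8 and 79.9 CPM in siDGUOK replicates 1, 2 and 3. No value of either group came near the other, and the log2 fold change was 2.42 (SE 0.16; adjusted p 2.59e-09 by edgeR's quasi-likelihood test). The lysyl hydroxylase PLOD1 was called lower at −0.72 (SE 0.08), and so was the lysyl oxidase LOX at −0.51 (SE 0.14). The call of LOX was lost without siControl replicate 2 (−0.49), siControl replicate 3 (−0.53), siDGUOK replicate 2 (−0.47) and siDGUOK replicate 3 (−0.36), where its adjusted p by edgeR's quasi-likelihood test lay between 0.0511 and 0.0666. Without siDGUOK replicate 1 LOX was called at −0.76, and with siDGUOK replicates 1 and 2 left out together at −0.90. The call was also lost with the shrunken fold changes of DESeq2 (−0.48). Over its 17 alternatives the adjusted p of edgeR or DESeq2 ran from 0.000197 to 0.0666.

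Of the 19 mitochondrial, lipid and stress targets, 3 were called higher (7.42% of all genes) and 1 lower (6.68% of all genes), with a median of 0.32, close to that of the 10 genes. HILPDA, a lipid droplet protein that restrains lipolysis, was at 7.48, 16.6 and 11.4 CPM in siControl replicates 1, 2 and 3, and at 20.9, 23.4 and 34.4 CPM in siDGUOK replicates 1, 2 and 3. Its siDGUOK libraries lay above all siControl libraries, with a log2 fold change of 1.15 (SE 0.27; adjusted p 0.00491 by edgeR's quasi-likelihood test). DDIT4, an inhibitor of mTORC1 signalling, was called higher at 0.95 (SE 0.08), and AK4, a mitochondrial adenylate kinase, was called lower at −0.60 (SE 0.12). The lipoprotein receptor VLDLR had a log2 fold change of 0.66 (SE 0.18; adjusted p 0.0130 by edgeR's quasi-likelihood test). Without siControl replicate 1, siControl replicate 3 or siDGUOK replicate 1 that p was 0.0773, 0.0596 and 0.0763, at log2 fold changes of 0.51, 0.65 and 0.59, and with siDGUOK replicates 1 and 2 left out together it was 0.0924. The 17 alternatives, by edgeR or DESeq2, ran from 0.00235 to 0.0924.

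**Figure D3:**
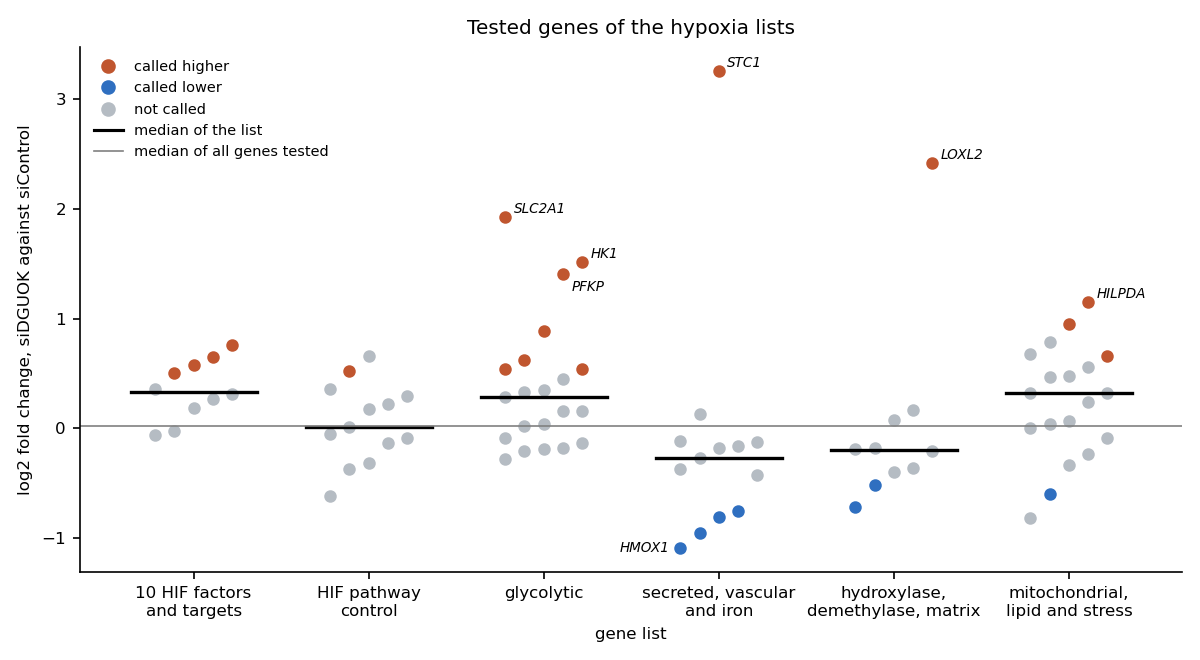
Log2 fold change, siDGUOK against siControl, of each tested gene (dots) in the list of 10 HIF factors and targets and in 5 lists of other HIF pathway genes and targets; orange is called higher, blue called lower and grey not called, black bars are list medians and the thin line is the median of all genes tested (0.02). The medians of the 10 genes (0.33), the glycolytic list (0.29) and the mitochondrial, lipid and stress list (0.32) lie above it, and those of the secreted list (−0.27) and the matrix list (−0.20) below it.

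Cell identity was read from markers beside these results. HepG2 carries hepatocyte transcripts, and 8 of 10 hepatocyte markers were called lower in siDGUOK by edgeR's quasi-likelihood test, with a median log2 fold change of −1.23, where 6.68% of all genes tested were called lower. The markers not called were APOA2 at −0.23 (SE 0.07) and SERPINA1 at 0.02 (SE 0.07), whose sign depended on single libraries: it was −0.06 without siDGUOK replicate 1 and −0.01 without siControl replicate 3. HNF4A, called at −0.51, was at −0.46 without siControl replicate 1 and −0.47 without siDGUOK replicate 3. With siDGUOK replicates 1 and 2 left out together the call of APOB was lost, at −1.25. The marker list shares TF with the secreted, vascular and iron list. The 10 markers summed to 56291, 50986 and 49577 CPM in siControl replicates 1, 2 and 3, and to 30210, 27053 and 25721 CPM in siDGUOK replicates 1, 2 and 3. None was at 0, ALB was the most abundant in each siControl library and SERPINA1 in each siDGUOK library, so the labelled cell type carried its markers in all 6. In cultures sequenced in bulk, fewer cells of a type and less RNA per cell cannot be told apart.

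Of 10 markers of leukocytes, endothelium and stroma, 7 were tested. COL1A1 was called higher (log2 fold change 4.04), where 7.42% of all genes tested were, and PDGFRB lower (−1.02), where 6.68% were. The log2 fold change was positive for 6 of the 7, and for 7450 of all 14476 genes tested. The median of 2.85 is the value of CDH5 (SE 1.27), which was not called. COL1A1 held 9, 37 and 11 counts in siControl and 374, 336 and 379 in siDGUOK replicates 1, 2 and 3. For CDH5 these were 0, 0 and 19 against 34, 145 and 27. COL1A1 and CDH5 thus passed the filter on low counts through their siDGUOK libraries. VWF held 510 counts in siDGUOK replicate 2 and at most 26 elsewhere. COL1A1 was at 4.76 without siControl replicate 2 and at 2.55 with the shrunken fold changes of DESeq2. These were the ends of its range over 17 alternatives. The range of PDGFRB ran from −1.59 to −0.72 over the 16 alternatives that tested it. The call of PDGFRB was lost without every library in turn but siDGUOK replicate 2: its log2 fold change was −1.02, −0.88 and −1.12 without siControl replicates 1, 2 and 3, −1.13 without siDGUOK replicate 1 and −0.81 without siDGUOK replicate 3. CD163, COL3A1 and DCN were not tested. CD163 held 9, 23 and 8 counts in siControl and 0 in each siDGUOK library, whereas COL3A1 and DCN held nearly all their counts in siDGUOK. The 10 summed to 14.4, 21.2 and 13.5 CPM in siControl replicates 1, 2 and 3, and to 42.5, 109 and 28.4 CPM in siDGUOK replicates 1, 2 and 3. The number at 0 was 3, 3 and 4 in siControl and 1, 1 and 3 in siDGUOK. The most abundant was PDGFRB in every siControl library, COL1A1 in siDGUOK replicates 1 and 3 (20.2 and 17.4 CPM) and VWF in siDGUOK replicate 2 (31.4 CPM). Segments of the T cell receptor genes, chosen after their values were seen, held 16, 37 and 33 counts in siControl and 109877, 1333 and 73 counts in siDGUOK replicates 1, 2 and 3. Of the 109877, 107601 lay in delta segments, with 58437 in the joining segment TRDJ2. The leukocyte marker PTPRC held 9, 55 and 2 counts in siControl and 37, 129 and 58 in siDGUOK replicates 1, 2 and 3. Whether the segment counts came from T cells was not tested. siDGUOK replicate 1, which held most of the segment counts, was also the highest library for HIF1A, EPAS1, EGLN1, EGLN3, CA9 and NDRG1. Without it HIF1A and CA9 were not called, at 0.40 and 0.44, and ADM and ANKRD37 were, at 0.60 and 0.83. The part of these markers in the levels of the 10 genes was not tested.

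**Figure D4:**
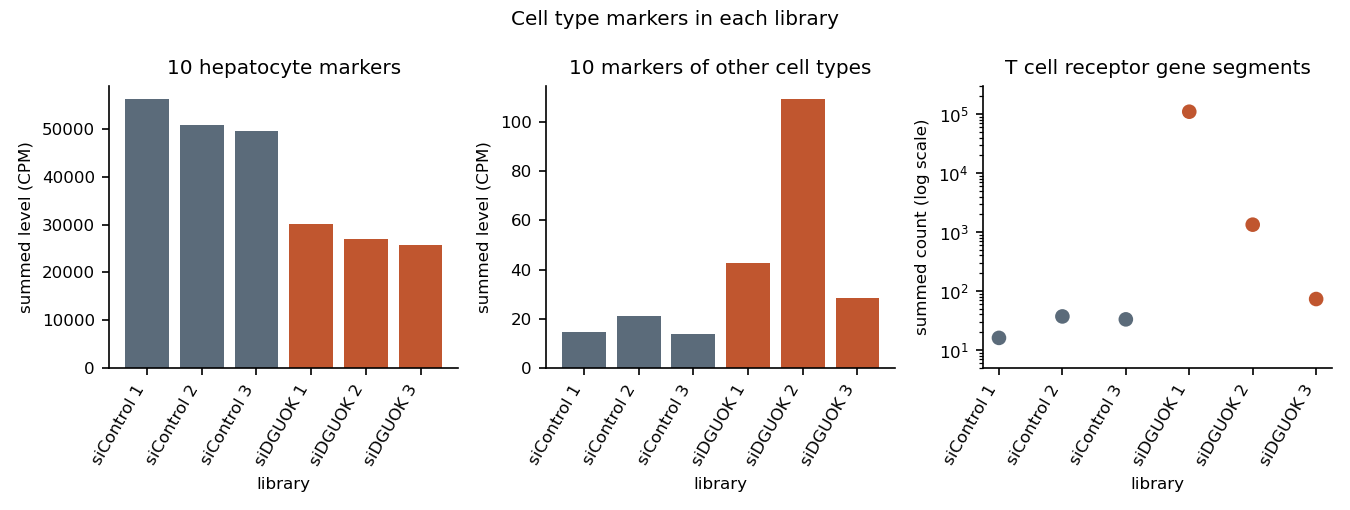
Summed level of 10 hepatocyte markers (left, CPM), summed level of 10 markers of leukocytes, endothelium and stroma (middle, CPM) and summed counts of T cell receptor gene segments (right, log scale) in each library, siControl in grey and siDGUOK in orange. The hepatocyte sums are lower in the siDGUOK libraries, the other sums are highest in siDGUOK replicate 2 (109 CPM), and receptor segments are highest in siDGUOK replicate 1 (109877 counts).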

How the data were processed

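The authors deposited raw read counts per gene for 6 HepG2 libraries, 3 siControl and 3 siDGUOK. By the submitters' notes and the paper, reads were aligned to GRCh38 with Gencode 27 by STAR 2.6.1 and counted by featureCounts 1.6.5 at a minimum quality of 10 with its defaults, which ignore strand and leave out multi-mapping reads and reads shared between genes; Bowtie 1.1.2 is named with no role. Of the count columns, 0 belonged to no sample. Library totals ran from 10527216 to 21334876 counts, and intervals cover the spread between libraries of this experiment only.

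In R 4.3.3, filterByExpr of edgeR 4.0.16 (minimum count 10) left 14476 of 24670 genes with a count, and library totals over all genes were kept. After TMM normalization, groups were compared by robust quasi-likelihood with condition as the sole term, and p-values were adjusted (Benjamini-Hochberg) over all genes tested. Standard errors are |log2 fold change| divided by the root of F. CPM use TMM-scaled totals, and RPKM divide CPM by the summed exon length of Gencode 44 in kilobases, the source of coordinates.

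The members and lists were chosen with earlier results of these data known. Named genes are the 10 members, DGUOK, up to 8 called genes of each list by size of change (the most abundant up to 3 where fewer are called), and for each called member the 2 most similar genes of at least 10 CPM (centred log2 CPM, prior count 2). Marker lists were used for cell identity. Other settings tried were DESeq2 1.42.0 (fold changes shrunken or not), upper-quartile or RLE normalization, dropping mitochondrial genes, no filter, a mean CPM above 10, the adjusted p alone, replicate number as a block and each library left out. Library totals over tested genes, and a fit lacking both siDGUOK replicates 1 and 2, were chosen after seeing the data. The code was tested on simulated data. Proteins were not analysed here.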

Additional observations from a re-analysis of the deposited data

How the results depend on the processing

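Over 17 alternatives the number of the 10 HIF genes called higher was 7 with the adjusted p alone, 3 with DESeq2 (shrunken or not), RLE, mitochondrial genes left out, a mean CPM above 10 and library totals over tested genes, 2 to 4 with 1 library left out and 0 with siDGUOK replicates 1 and 2 left out together; in that last fit, chosen after seeing the data, the lone siDGUOK library is assumed to vary like the siControl libraries. None of the 10 was called lower under any of the 17 by edgeR or DESeq2; at an unadjusted p under 0.05, both tools had 0 lower with all libraries and edgeR had 1 lower in that last fit. Of 170 values of the 10 genes, 147 kept their direction and their call or lack of one, 17 lost the call by fold change or adjusted p, 3 were called only because the fold threshold was dropped (VEGFA, NDRG1 and BNIP3) and 3 changed sign. Those that changed sign were EPAS1 (0.0547 without siDGUOK replicate 2; range with 1 library left out −0.170 to 0.0547), EGLN1 (0.0104 without siDGUOK replicate 3; range −0.236 to 0.0104) and EGLN3 (−0.0400 with both left out). The log2 fold change of SERPINA1 ran from −0.0558 to 0.0618 with 1 library left out and was at −0.0309 with both left out. HIF1A lay between 0.47 and 0.49, under the threshold of 0.5, in the 6 fits with 3 genes called that kept all libraries. With the adjusted p alone, 19 of the 76 tested genes of the hypoxia lists were higher, against 10.3% of all genes, and 11 lower, against 9.35%. With a replicate block, 2077 genes were called and 4 of the 10 were higher. Correlations across genes between libraries of the same number were 0.0297, 0.0268 and −0.000726. With 3 libraries per group these values cannot decide whether cultures of the same number were paired. Without a filter on low counts the median of all genes moved by 0.13 to 0.14, since more genes were then tested, and that of the 10 genes was 0.34. The cause of the other differences was not tested. ANKRD37, with 127 to 558 counts per library, had the widest confidence interval of the 10.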
